A study of Mus musculus with 11 samples.

Results

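The genes described here are the 27 genes of sterol synthesis and of its control by the transcription factor SREBP2 that were listed by symbol: enzymes from acetyl-CoA to cholesterol, the SREBP transcription factors with the proteins that hold, escort and cut them, and 1 sterol carrier. All 27 were found among the 57180 Ensembl identifiers of the deposited count table, and all 27 passed the filter on low counts, which left 19948 genes. RNA came from alveolar macrophages sorted by flow cytometry from lung homogenates of wild-type C57BL/6 mouse pups at postnatal day 7. The hyperoxia pups had breathed 95% oxygen from postnatal day 1 to day 5, so the RNA was taken after the exposure had ended, and the normoxia pups are labelled only as kept in normoxia. There were 2 hyperoxia male, 3 hyperoxia female, 3 normoxia male and 3 normoxia female libraries, written here as HM, HF, NM and NF with the replicate number of the labels (HM2 and HM3 for hyperoxia males). The labels do not say whether a replicate is 1 animal, a pool or a repeat preparation, and each p-value therefore reflects library-to-library spread, part of which may come from preparation rather than from the pups.

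Cells build cholesterol from acetyl-CoA through mevalonate, isoprenoid diphosphates, squalene and lanosterol. When membranes of the endoplasmic reticulum are low in sterol, SCAP carries SREBP2 to the Golgi, where the proteases encoded by Mbtps1 and Mbtps2 release its active part, which turns on the enzymes of the pathway. When sterol is plentiful, INSIG proteins hold SCAP back and the pathway is shut down. Alveolar macrophages take up and break down surfactant, the film of phospholipid and cholesterol that lines the air spaces, and so handle a steady load of cholesterol from outside.

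Total counts ran from 18087948 in NM3 to 32579468 in NF1. NM3, NF3, HF2 and HF3 had reads on more genes, 33158 to 35530, than the other libraries, with 26856 to 30173. The identifier with most counts took 20.8% of NM3, 18% of NF3 and 17.5% of NM1, against 5.27% to 13.2% of the others. All 14 alveolar macrophage markers listed were measured, and their summed level was 5910 to 6530 CPM in HM, 5230 to 7230 CPM in HF, 4920 to 8240 CPM in NM and 6640 to 8170 CPM in NF libraries (CPM, the count of a gene relative to the TMM-scaled total of its library). Of them 4 were lower after hyperoxia in the test over all genes described below, Cidec, Krt79, Ear1 and Fabp4 (background 0.165% of genes), and 0 were higher (background 0.541%). Without NM3, 3 of the markers were lower, where 58 of 18758 genes were. With DESeq2 6 were lower, where 155 of 19948 genes were.

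Insig1 and Srebf2 each correlated with Hmgcs1 over the 11 libraries and Idi1 did not, as described below. Insig1 was not set against Srebf2, and no link of promoter motifs to this variation was tested. The promoters of these 4 members are shown. They come from RefSeq on build GRCm38.p6, 250 bases before to 50 bases after the annotated start, on the plus strand: Hmgcs1 at chr13:119690101-119690400, Insig1 at chr5:28071162-28071461, Srebf2 at chr15:82147019-82147318 and Idi1 at chr13:8885356-8885655. Capitals mark the core of the sterol regulatory element, TCACNCCA, to which SREBP binds, and the CCAAT box, read on this strand or the other (where it appears as ATTGG), to which NF-Y, a partner of SREBP, binds.
Hmgcs1: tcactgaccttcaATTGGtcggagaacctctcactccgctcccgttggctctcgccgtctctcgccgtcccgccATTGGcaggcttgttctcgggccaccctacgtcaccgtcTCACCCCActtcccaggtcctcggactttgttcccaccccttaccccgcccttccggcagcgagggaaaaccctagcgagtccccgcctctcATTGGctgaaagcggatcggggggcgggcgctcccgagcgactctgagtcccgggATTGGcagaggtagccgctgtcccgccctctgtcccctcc
Insig1: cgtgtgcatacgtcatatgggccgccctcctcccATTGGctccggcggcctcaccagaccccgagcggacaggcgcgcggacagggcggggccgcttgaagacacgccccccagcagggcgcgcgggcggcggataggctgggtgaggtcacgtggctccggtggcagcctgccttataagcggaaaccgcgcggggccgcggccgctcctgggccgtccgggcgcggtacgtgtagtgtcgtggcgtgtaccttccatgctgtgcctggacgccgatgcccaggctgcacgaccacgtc
Srebf2: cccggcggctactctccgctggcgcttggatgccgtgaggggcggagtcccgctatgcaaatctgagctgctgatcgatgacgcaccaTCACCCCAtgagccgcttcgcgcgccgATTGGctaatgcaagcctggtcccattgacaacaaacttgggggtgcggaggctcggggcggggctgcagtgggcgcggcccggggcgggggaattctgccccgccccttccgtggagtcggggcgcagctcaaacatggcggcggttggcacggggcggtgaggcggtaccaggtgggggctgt
Idi1: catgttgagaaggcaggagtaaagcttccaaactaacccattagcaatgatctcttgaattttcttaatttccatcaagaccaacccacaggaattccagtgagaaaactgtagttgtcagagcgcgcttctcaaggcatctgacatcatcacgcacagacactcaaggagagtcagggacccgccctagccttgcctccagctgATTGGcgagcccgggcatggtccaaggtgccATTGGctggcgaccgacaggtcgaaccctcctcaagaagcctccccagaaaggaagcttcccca
The core element was found once each in the windows of Hmgcs1 and Srebf2, 137 and 162 bases before the start (counted to its first base), and not in those of Insig1 and Idi1. CCAAT boxes numbered 4 in Hmgcs1, 2 in Idi1 and 1 each in Insig1 and Srebf2.

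A promoter window was on hand for 23 of the 27 members. The motifs were searched on both strands, and a gene was counted if any of its windows held the letters. TCACNCCA was in 3 of the 23 (13%), namely Hmgcs1, Msmo1 and Srebf2, against 5.0% of all 27025 genes with a window. CCAAT was in 19 (82.6%), against 41.1% of all genes, and the GC box GGGCGG, to which SP1 binds, in 20 (87.0%), against 38.2%. The E-box CACGTG, which SREBP can also bind, was in 5 (21.7%), namely Dhcr7, Hsd17b7, Insig1, Sc5d and Scap, against 8.1%. TCACNCCA followed by AT would also hold CCAAT, which is not the case in the 4 windows shown. The background holds all genes with a window, also genes that did not pass the filter on low counts, whereas all members passed it. These shares are therefore not matched for expression. Other elements and regions outside these windows were not searched.

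Most of the pathway was well expressed in these macrophages in every group. The level of a gene per kilobase of its exons (CPM per kb, with exon lengths from GENCODE M21) lets genes be compared. Over the 11 libraries Hmgcs1, the cytosolic HMG-CoA synthase that starts the committed path, was highest at 22.1 ± 4.58 CPM per kb (SD, n = 11), above 90.8% of the genes tested that had a length. Next came Srebf2, which encodes SREBP2, at 15.7 ± 3.99, Insig1 at 15.6 ± 2.07 and Ebp, the sterol isomerase, at 15.2 ± 2.18 CPM per kb (SD, n = 11). These 3 lay within each other's spread.

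Among the other early enzymes Idi1, isopentenyl diphosphate isomerase, had 12.4 ± 1.36, Mvd, the mevalonate diphosphate decarboxylase, 11.2 ± 1.71 and Pmvk, phosphomevalonate kinase, 10 ± 1.41 CPM per kb (SD, n = 11). Acat2, the cytosolic thiolase, and Mvk, mevalonate kinase, were lower at 3.76 ± 0.526 and 3.46 ± 0.606 CPM per kb (SD, n = 11). Fdft1, squalene synthase, stood at 9.75 ± 2.15 and Fdps, which makes farnesyl diphosphate, at 7.94 ± 1.46 CPM per kb. Sqle, squalene epoxidase, a control point of the pathway, stood at 4.29 ± 1.11 and Ggps1, which makes the geranylgeranyl diphosphate used on small GTPases, at 3.80 ± 0.324 CPM per kb (SD, n = 11). The squalene steps ended with Lss, lanosterol synthase, at 1.40 ± 0.256 CPM per kb over an exon length of 10787 bases.

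From lanosterol on, Cyp51, the demethylase, had 11.4 ± 1.38 and Msmo1, the methylsterol oxidase, 7.39 ± 0.900 CPM per kb. Their successors Nsdhl and Hsd17b7, which finish the removal of the methyl groups, had 5.73 ± 0.964 and 1.85 ± 0.473 CPM per kb. The last steps, Dhcr7 and Sc5d, stood at 5.01 ± 0.932 and 2.56 ± 0.277 CPM per kb (SD, n = 11). Tm7sf2, a sterol reductase whose reaction the lamin B receptor Lbr can also carry out, was lowest of the 27 at 0.718 ± 0.239 CPM per kb.

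In the control machinery, Srebf1, which encodes the SREBP1 forms, had 9.30 ± 2.32 CPM per kb, below Srebf2. Insig1 was 15.6 and its paralog Insig2 2.51 ± 0.241 CPM per kb (SD, n = 11), so Insig1 was the more abundant of the pair in these cells. Mbtps1, the first protease, stood at 7.51 ± 1.46, Scap at 6.6 ± 1.87 and Mbtps2, the second protease, at 1.98 ± 0.483 CPM per kb. Stard4, which moves cholesterol between membranes, had 5.63 ± 1.18 CPM per kb (SD, n = 11).

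**Figure D1:**
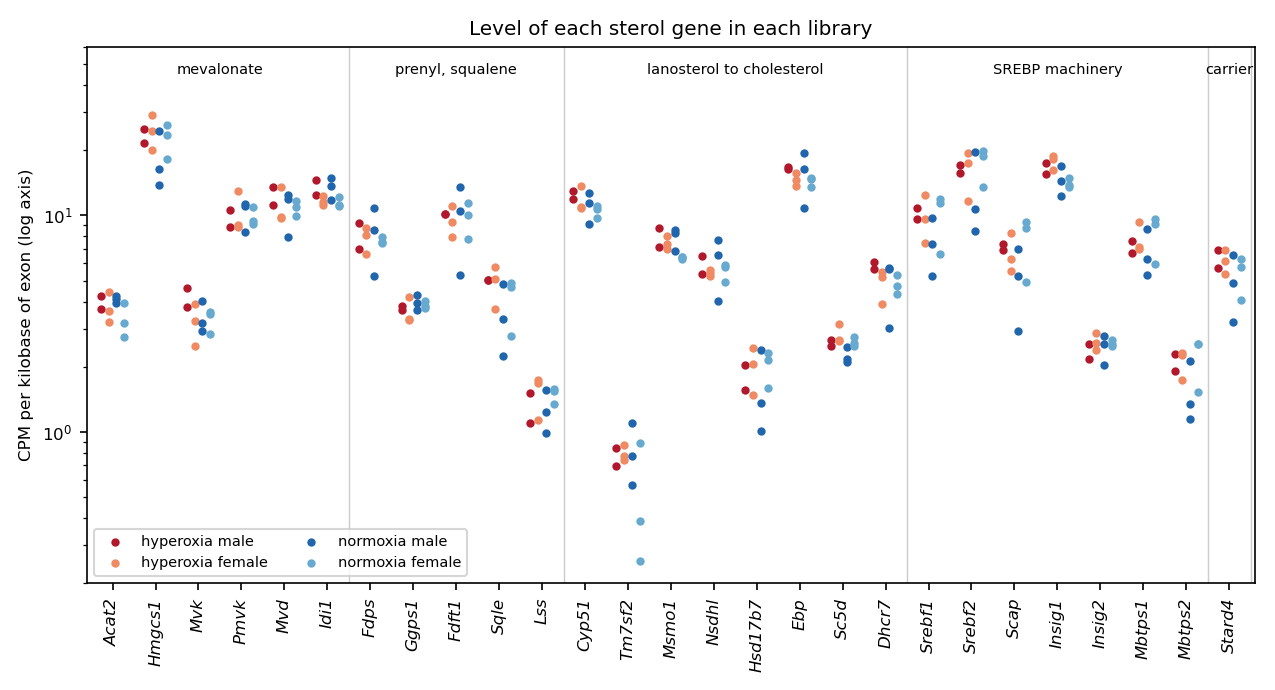
Level of each of the 27 genes, as CPM per kilobase of exon on a log axis, with 1 point per library and genes ordered by role. Hmgcs1 (22.1 CPM per kb over all libraries) is highest and Tm7sf2 (0.718 CPM per kb) lowest, and the hyperoxia and normoxia points of most genes overlap. Single normoxia points lie apart for some genes, such as NM3 below the others for Scap, Fdft1 and Dhcr7, and NF1 and NF2 below the others for Tm7sf2.

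Reads at some members can belong to another gene, because the labels do not state whether strand was used in counting. In GENCODE M21 exons of 11 of the 27 overlap exons of another gene, 8 of them on the opposite strand. The partners with most reads were Ctsb, a lysosomal protease, at Fdft1 (24239 counts a library on average), Akap9 at Cyp51 (2636) and Arid4b at Ggps1 (1520). Fdft1 itself had 435 to 1406 counts a library. Acat2 has a close copy, Acat3, with which reads could be shared.

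Hyperoxia was compared with normoxia over both sexes to ask whether exposure in the first days of life changed this pathway in the cells recovered 2 days after it ended. No sterol gene passed. By the quasi-likelihood test of edgeR, adjusted by Benjamini-Hochberg over all 19948 genes, 0 of the 27 members had an adjusted p under 0.05, where 0.707% of all genes did (141 genes). The lowest adjusted p among members was 0.717, 0 members had an unadjusted p under 0.05, where 8.13% of all genes did, and DESeq2 also called 0. Fold changes of hyperoxia over normoxia ran from 0.941 for Ggps1 to 1.31 for Sqle. The 95% interval of all 27 lay within a 2-fold change in either direction, and that of 19 within a 1.5-fold change. Without NM3 these numbers were 26 and 25 of 27, and the interval of Tm7sf2 reached a fold of 2.13. Smaller differences could not be told from 0 with these libraries.

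The members nonetheless leaned one way. Log2 fold changes were above 0 for 23 of 27, with a median of 0.12 (SD 0.11 over members), against 45.9% above 0 and a median of -0.03 over all genes tested. Among the 10522 genes at least as abundant as the lowest member, 52.8% were above 0 and the median was 0.01. The median was 0.09 for the mevalonate steps (5 of 6 above 0), 0.01 for the prenyl and squalene steps (4 of 5), 0.14 for the steps after lanosterol (7 of 8) and 0.15 for the SREBP machinery (6 of 7). With libraries scaled by DESeq2's size factors 19 of 27 were above 0, with a median of 0.09. Without NM2, 26 of 27 were above 0 with a median of 0.17, against 48.1% above 0 over all genes. In that fit 2 members had an unadjusted p under 0.05 and none passed (lowest edgeR quasi-likelihood adjusted p = 0.246). With the replicate number as a block 25 of 27 were above 0 with a median of 0.15, against 50.4% of all genes. Without NM3, 15 of 27 were above 0 and the median was 0.01, against 49.1% above 0 and a median of -0.01 over all genes, and 39.9% above 0 and a median of -0.05 over the 10522 genes. The role medians without NM3 were 0.03, -0.07, 0.05 and 0.01 in the order above, with 4 of 6, 1 of 5, 5 of 8 and 4 of 7 above 0. NM3 held the lowest of the 11 CPM values for 20 of the 27 members. It also did so for 45.4% of the 10522 genes at least as abundant as the lowest member. NM3 is the library with fewest counts and with the largest share taken by 1 identifier, and the part of depth or RNA quality in its low values was not tested.

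**Figure D2:**
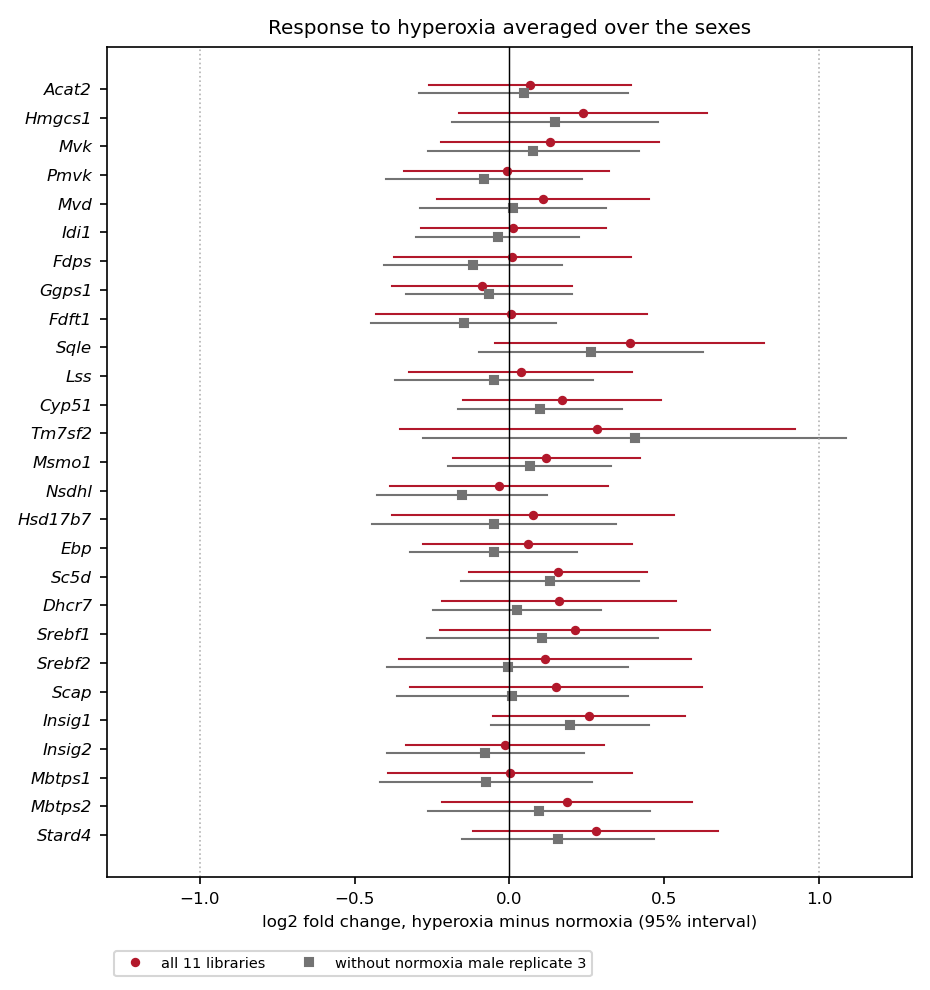
Log2 fold change of hyperoxia minus normoxia, averaged over the sexes, with its 95% interval for each of the 27 genes, with all 11 libraries (circles) and without NM3 (squares), and dotted lines at a 2-fold change. Every interval includes 0, and most values move left without NM3, so that 15 rather than 23 lie above 0.

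Among the mevalonate enzymes, Hmgcs1 had 99.2 and 116 CPM in HM2 and HM3 and 112, 133 and 92.1 CPM in HF1 to HF3, against 75.03, 112 and 63.2 CPM in NM1 to NM3 and 108, 121 and 83.8 CPM in NF1 to NF3. The hyperoxia and normoxia libraries overlapped in each sex, with NM3 lowest and HF2 highest. Its log2 fold change was 0.24 ± 0.19 (SE, edgeR quasi-likelihood, adjusted p = 0.897), and 0.15 ± 0.16 without NM3. Idi1 was flatter, at 51.1 and 43.6 CPM in HM, 39.1, 43.0 and 40.5 CPM in HF, 47.9, 52.4 and 41.4 CPM in NM and 39.3, 38.9 and 42.5 CPM in NF libraries. All its values lay between 38.9 and 52.4 CPM, and the log2 fold change was 0.01 ± 0.14 (SE), with a 95% interval of -0.29 to 0.31. The other members of these steps, Acat2 (0.07), Mvk (0.13), Mvd (0.11) and Pmvk (-0.01), had log2 fold changes of the same small size.

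Sqle came nearest to a difference. It had 27.9 and 27.8 CPM in HM and 28.1, 31.95 and 20.5 CPM in HF libraries, against 18.4, 26.8 and 12.4 CPM in NM and 25.8, 26.9 and 15.4 CPM in NF libraries. Both male hyperoxia libraries lay above all 3 male normoxia libraries, by a small margin over NM2, while the female libraries overlapped. Its log2 fold change was 0.39 ± 0.21 (SE, unadjusted p = 0.0768, edgeR quasi-likelihood adjusted p = 0.717), with a 95% interval of 0.968 to 1.77 as a fold. The log2 fold change of Sqle was 0.26 ± 0.17 without NM3 and 0.55 ± 0.19 without NM2 (SE, edgeR quasi-likelihood adjusted p = 0.643 and 0.246). The genes on either side in the path, Fdft1 (0.01) and Lss (0.04), were near 0, as were Fdps (0.01) and Ggps1 (-0.09), each a log2 fold change.

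Insig1, itself a target of SREBP and the brake on its activation, had 48.2 and 53.9 CPM in HM and 58.0, 56.2 and 49.98 CPM in HF libraries, against 44.5, 52.4 and 37.9 CPM in NM and 42.7, 45.9 and 42.0 CPM in NF libraries. The female hyperoxia libraries all lay above the female normoxia ones, and the male libraries overlapped. The log2 fold change was 0.26 ± 0.15 over both sexes (SE, edgeR quasi-likelihood adjusted p = 0.761, unadjusted p = 0.0971) and 0.19 ± 0.12 without NM3. Insig2 did not show this separation, with 7.56 to 8.87 CPM in HM and 8.26 to 9.96 CPM in HF libraries, against 7.07 to 9.63 CPM in NM and 8.68 to 9.22 CPM in NF libraries (log2 fold change -0.02 ± 0.15).

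The transcription factor genes varied more between libraries than between groups. Srebf2 had 113 and 123 CPM in HM and 140, 125 and 84.0 CPM in HF libraries, against 77.3, 142 and 61.0 CPM in NM and 135, 143 and 97.1 CPM in NF libraries. Normoxia males alone held the lowest value of all 11 libraries, in NM3, and one of the highest, in NM2. Its log2 fold change was 0.12 ± 0.22 (SE), or -0.01 ± 0.18 without NM3. Srebf1 (0.21 ± 0.21), Scap (0.15 ± 0.22), Mbtps1 (0.00 ± 0.19) and Mbtps2 (0.19 ± 0.19) had log2 fold changes of about their SE or less. Stard4 had 31.9 and 38.7 CPM in HM and 34.2, 38.6 and 30.1 CPM in HF libraries, against 27.3, 36.8 and 17.96 CPM in NM and 32.3, 35.1 and 22.7 CPM in NF libraries. The groups overlapped, and its log2 fold change was 0.28 ± 0.19 (SE, edgeR quasi-likelihood adjusted p = 0.839), and 0.16 ± 0.15 without NM3 (SE, adjusted p = 0.786).

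**Figure D3:**
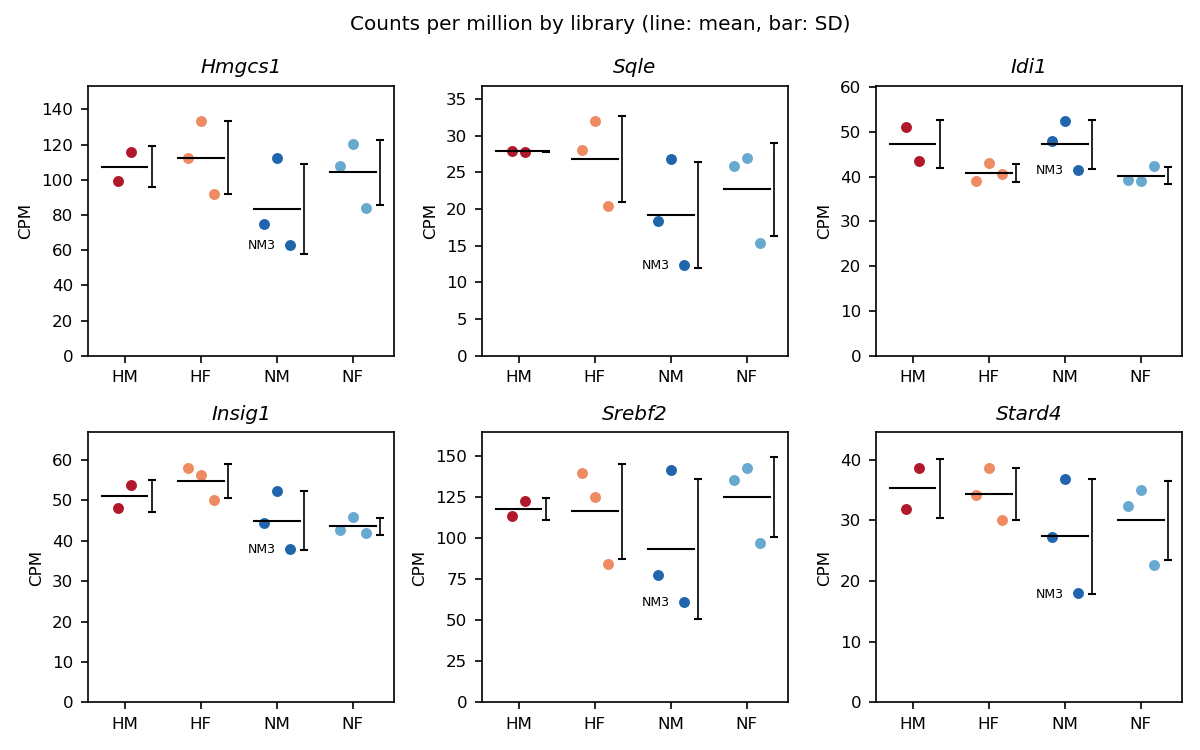
CPM in each library for Hmgcs1, Sqle, Idi1, Insig1, Srebf2 and Stard4, with 1 point per library, a line at the group mean and a bar for the SD. NM3 (labelled) is the lowest point for Hmgcs1, Sqle, Insig1, Srebf2 and Stard4, while NM2 lies near the hyperoxia points, and Idi1 spans only 38.9 to 52.4 CPM.

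After lanosterol, Tm7sf2 had the widest spread, with 3.71 and 3.07 CPM in HM and 3.85, 3.40 and 3.26 CPM in HF libraries, against 3.42, 2.50 and 4.85 CPM in NM and 1.11, 1.71 and 3.92 CPM in NF libraries. Low values in NF1 and NF2 set it apart from the rest of the pathway, and NM3, lowest for most members, was its highest library. Its reads numbered 35 to 116 a library, and its exons overlap those of Vps51 on the same strand. The log2 fold change was 0.28 ± 0.30 (SE) over both sexes, and 0.62 without NF3, with an adjusted p of 0.554. Msmo1 had 49.4, 45.5 and 43.1 CPM in HF1 to HF3, against 39.6, 39.5 and 38.6 CPM in NF1 to NF3, with no overlap in females. In males it did not separate, at 53.9 and 44.0 CPM in HM, against 50.9, 52.8 and 42.1 CPM in NM libraries. Sc5d had 12.1 and 12.98 CPM in HM, against 12.01, 10.3 and 10.6 CPM in NM libraries, without overlap in males but by a small margin over NM1. The remaining members of these steps, Cyp51 (0.17), Dhcr7 (0.16), Hsd17b7 (0.08), Ebp (0.06) and Nsdhl (-0.03), had log2 fold changes of about their SE or less.

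Taking the sexes apart, 0 of 27 members passed in males and 0 in females (edgeR quasi-likelihood, Benjamini-Hochberg), where 0.0401% of all genes did in each sex. An unadjusted p under 0.05 was found for 0 members in either sex, against 5.5% of all genes in males and 4.53% in females, and DESeq2 called 0. Without NM2, 7 members had an unadjusted p under 0.05 in males, and still 0 passed after adjustment (lowest adjusted p = 0.374). In males the member median was 0.17 with 20 of 27 above 0, against -0.05 and 45.6% above 0 over all genes and 0.08 and 60.7% above 0 over the genes at least as abundant as the lowest member. The male median was 0.02 with 14 of 27 above 0 without NM3, and 0.30 with 23 of 27 above 0 without NM2. In females it was 0.02 with 17 of 27 above 0, or -0.01 with 11 of 27 above 0 when libraries were scaled by DESeq2's size factors, against a median of -0.0046 and 49.4% above 0 over all genes and of -0.05 and 40.5% over the genes at least as abundant as the lowest member. Of the 27 members, 2 in males (Sqle and Sc5d) and 2 in females (Msmo1 and Insig1) had hyperoxia libraries all above the normoxia ones, and 0 had them all below in either sex. Over all genes such separation upward was seen for 8.62% in males and 6.23% in females, and downward for 8.49% and 4.01%, so the members' upward share was close to the background. Over both sexes together 0 members separated, against 1.76% of genes upward and 0.396% downward.

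Intervals in single sexes were wider. In males the 95% interval lay within a 2-fold change for 21 of 27 members, and the largest fold was that of Sqle at 1.45, with an interval of 0.926 to 2.27. In females it did so for 26 of 27, the exception being Tm7sf2 with a fold of 1.57 and an interval of 0.866 to 2.84.

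The female response was set against the male response by the interaction, which is the female minus the male log2 fold change. Members past the test numbered 0 of 27, where 0% of all genes passed (edgeR quasi-likelihood, 0 genes). An unadjusted p under 0.05 was found for 0 members and 1.67% of all genes, and DESeq2 called 0 members. The SREBP machinery had the lowest median of the roles, -0.44, or -0.26 without NM3, with 2 of 7 above 0 in both. Scap had 61.4, 46.8 and 41.3 CPM in HF, against 65.3, 69.3 and 36.7 CPM in NF libraries, and 55.0 and 51.6 CPM in HM, against 39.0, 52.3 and 21.8 CPM in NM libraries. Its female response was -0.20 and its male response 0.50 on the log2 scale, and the difference of -0.70 ± 0.45 (SE) had an unadjusted p of 0.137. Without NM3 the difference for Scap was -0.45, with a 95% interval of -1.197 to 0.296. Over all 27 the interaction median was -0.09, against 0.01 over all genes, and 9 of 27 were above 0, against 51% of all genes. Over the genes at least as abundant as the lowest member the interaction median was -0.13 with 32% above 0. With all libraries the members' values were therefore close to that background. Without NM3 the member median was 0.02 with 14 of 27 above 0. The median without NM3 was -0.04 with 45.2% above 0 over all genes, and -0.03 with 43.6% above 0 over the 10522 genes at least as abundant as the lowest member.

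Between the sexes, 0 of 27 members differed in hyperoxia, in normoxia or over both oxygen groups (edgeR quasi-likelihood), where 0.0251% of all genes passed in each. An unadjusted p under 0.05 was found for 0 of 27 in each, against 1.73% of all genes in hyperoxia, 3.63% in normoxia and 3.27% over both, and DESeq2 called 0. The smallest p values were those of Mbtps2 and Scap in normoxia. Mbtps2 had 25.7, 25.8 and 15.4 CPM in NF, against 13.6, 21.5 and 11.6 CPM in NM libraries (female minus male log2 0.52 ± 0.26, adjusted p = 0.851), and Scap differed by 0.60 ± 0.30 with the same adjusted p. In both genes the groups overlapped, NM3 was the lowest library, and NF3 lay far below NF1 and NF2. In hyperoxia the largest difference was that of Mvk, at 10.5, 8.71 and 6.66 CPM in HF, against 12.3 and 10.1 CPM in HM libraries (log2 -0.38 ± 0.25, SE).

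Part of the set varied together from library to library, as did much of the transcriptome. Over the other 10521 genes at least as abundant as the lowest member, the median Pearson r with Hmgcs1 was 0.492, and 36.9% reached 0.683, a level taken from the members as described below. The p values below test for no correlation, not for a difference from that background. No such background was computed for rank correlations, for deviations from group means or for the 7 libraries below. Hmgcs1 and Sqle had a Pearson r of 0.940 and a Spearman rho of 0.845 over the 11 libraries in log2 CPM (permutation p = 7e-05 and 0.0018, two-sided). Benjamini-Hochberg values over the 5 pairs tested were 0.00035 and 0.0091. Srebf2 followed Hmgcs1 almost as closely (r = 0.919, rho = 0.809, adjusted permutation p = 0.00047 and 0.0094), then Srebf1 (r = 0.870, rho = 0.755, adjusted permutation p = 0.001 and 0.017) and Insig1 (r = 0.757, rho = 0.727, adjusted permutation p = 0.0087 and 0.018). Idi1, an enzyme of the same path, did not (r = -0.0843, rho = -0.173, adjusted permutation p = 0.81 and 0.61). Without NM3 and NM1, the libraries farthest from the median of Hmgcs1, r was 0.886 for Sqle, 0.752 for Srebf2, 0.729 for Srebf1, 0.570 for Insig1 and -0.0681 for Idi1. After removing the group means, r was 0.949 for Sqle, 0.935 for Srebf2, 0.833 for Srebf1 and 0.890 for Insig1, each with an adjusted permutation p of at most 0.002. These permutations moved the 11 deviations freely between groups. Deviations within a group are tied to each other by the removal of its mean, so these p values are likely too small.

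The split of the libraries by genes detected was also examined. The labels do not say which libraries were size-selected again and resequenced, so the part of that step in this split was not tested. Within the 7 libraries other than NM3, NF3, HF2 and HF3, r was 0.898 for Sqle, 0.955 for Srebf2, 0.871 for Srebf1, 0.421 for Insig1 and -0.436 for Idi1, and no pair passed (adjusted exact permutation p of 0.063 or more). The 4 libraries themselves are too few for a value. Hmgcs1 and Srebf2 were lowest in NM3, NM1, NF3 and HF3, and NM3, NF3 and NM1 are also the libraries in which 1 identifier took the largest share of counts. The part of that share in the common variation was not tested.

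**Figure D4:**
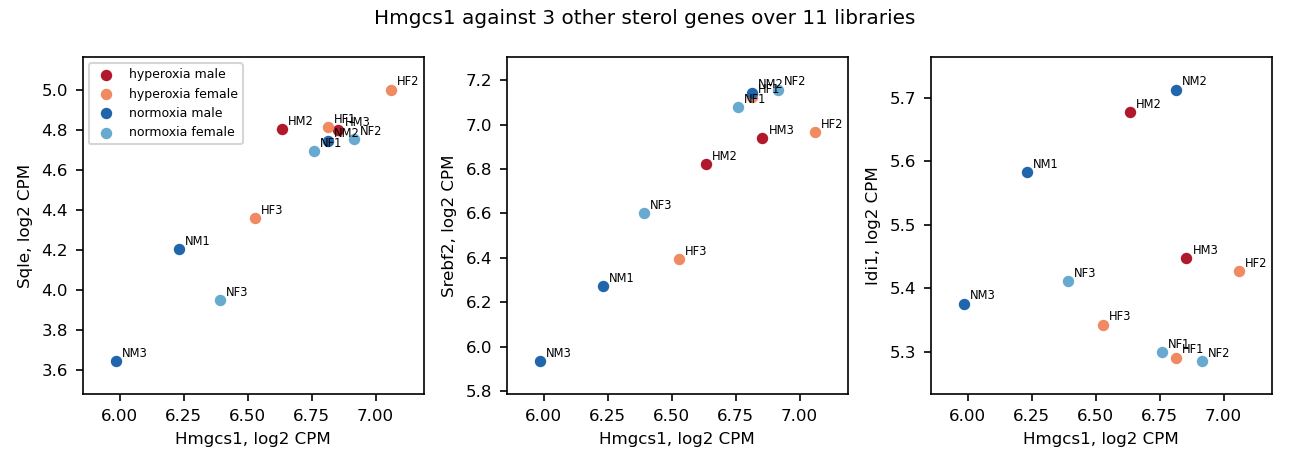
Log2 CPM of Sqle, Srebf2 and Idi1 against that of Hmgcs1, with 1 labelled point per library coloured by group. Sqle and Srebf2 climb with Hmgcs1 from NM3 at the lower left (r = 0.940 and 0.919), whereas Idi1 shows no such trend (r = -0.0843). The median r with Hmgcs1 was 0.492 over the other 10521 genes at least as abundant as the lowest member.

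Among all 26 other members, a family chosen after the first pairs had been seen, 13 correlated with Hmgcs1 by Pearson r and 8 by Spearman rho (permutation p adjusted over the 26 under 0.05). The closest were Mbtps2 (r = 0.954, rho = 0.891), Hsd17b7 (r = 0.952, rho = 0.864), Sqle and Stard4 (r = 0.932, rho = 0.927), with adjusted Pearson permutation p of 0.00065 or less. Without NM3 and NM1, r of the 13 ran from 0.527 for Mbtps1 to 0.903 for Stard4, and without NM3 alone from 0.353 for Dhcr7 to 0.921 for Mbtps2, with Fdft1 at 0.388. Much of the transcriptome varied in the same way. The lowest r among the 13 of 26 members was 0.683, a level taken from these members, so their share at it with all libraries was fixed. Of the other 10521 genes at least as abundant as the lowest member, 36.9% had an r with Hmgcs1 at or above that level. Without NM3 that level was reached by 27.3% of those genes and 7 of 26 members, which is close to that background. The median r was 0.599 over the members and 0.492 over those genes with all libraries, and 0.397 and 0.330 without NM3. At the other end Ggps1 (r = -0.0695), Msmo1 (r = 0.072), Acat2 (r = 0.0928) and Pmvk (r = 0.206) showed no relation, and Tm7sf2 ran the other way (r = -0.480, adjusted permutation p = 0.21). By Pearson r, Hmgcs1 varied with the SREBP machinery other than Insig2, and with Sqle, Lss, Fdft1, Cyp51, Hsd17b7, Dhcr7 and Stard4, while 0 of the other 5 mevalonate enzymes passed. Of the 13 members, Scap, Mbtps1, Fdft1, Cyp51 and Dhcr7 did not pass by Spearman rho (adjusted permutation p of 0.089 to 0.27).

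**Figure D5:**
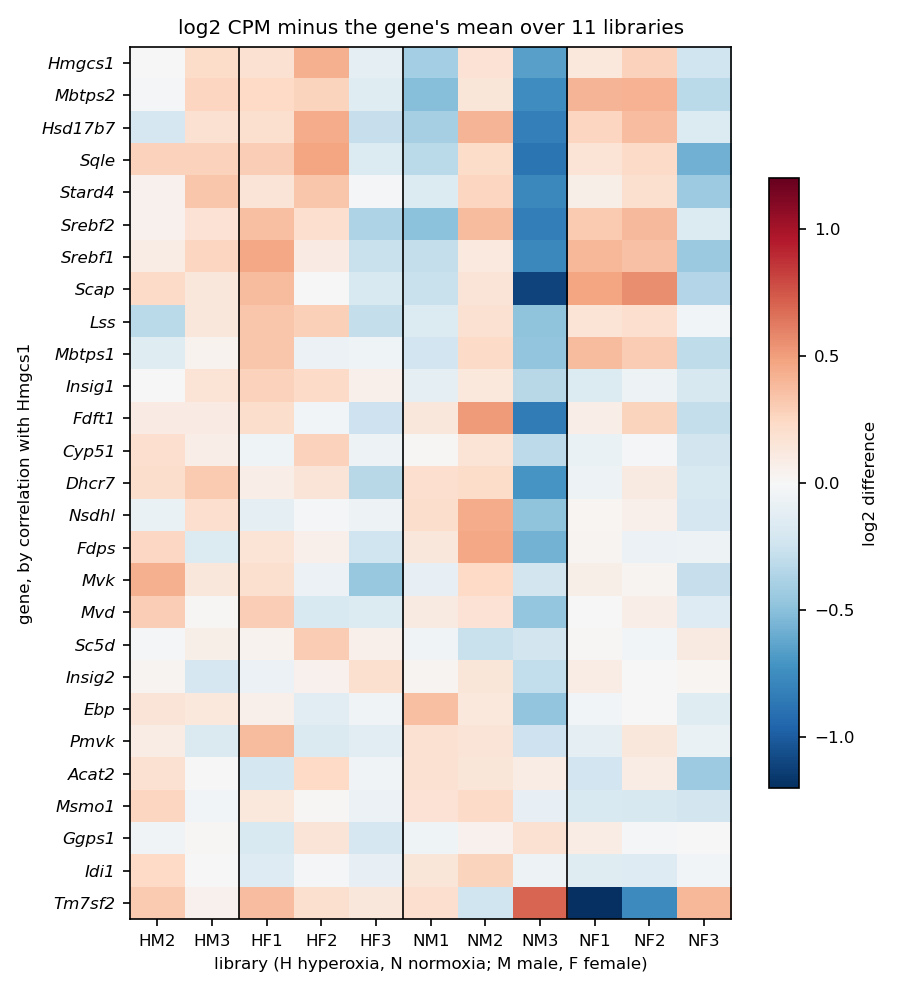
Log2 CPM of each gene minus its mean over the 11 libraries (colour), with libraries in columns by group and genes in rows from the closest to the least like Hmgcs1 by Pearson r. The upper rows are low in NM3, NM1 and NF3 together. The lower rows follow this pattern less or not at all, such as Ebp, which is lowest in NM3 but highest in NM1. Tm7sf2 in the last row is low in NF1 and NF2 and high in NM3.

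Neighbouring parts of sterol metabolism gave a like picture over both sexes. Of 13 genes of the isoprenoid branch, which makes dolichol, ubiquinone and prenyl groups, 0 passed (edgeR quasi-likelihood, background 0.707%), with a median log2 fold change of -0.01. Their smallest p values were those of Fntb (0.51 ± 0.24) and Icmt (0.26 ± 0.20), a prenyltransferase subunit and a methylase of prenylated proteins. Of 16 genes of sterol sensing and turnover 0 passed, with a median of 0.13 and 13 of 16 above 0. The largest was Lbr (0.65 ± 0.17, unadjusted p = 0.00163, edgeR adjusted p = 0.116), followed by Rnf145 (0.42 ± 0.16, adjusted p = 0.379), a ubiquitin ligase that responds to sterols. Of 7 genes that supply acetyl-CoA or use it for ketone bodies 0 passed (median 0.01), with Acat1, the mitochondrial thiolase, at -0.23 ± 0.16 (adjusted p = 0.857). Of 14 genes of sterol uptake, transport and esterification 0 passed (median 0.04), with Gramd1b, an endoplasmic reticulum cholesterol transporter, at 0.38 ± 0.17 and Stard5 at -0.29 ± 0.15 (adjusted p = 0.555 and 0.720). Unadjusted p values under 0.05 numbered 0, 2, 1 and 1 in these lists in the order given. DESeq2 called 1 gene in them, Lbr (adjusted p = 0.0195), so its call depends on the tool. Without NM3 the list medians were -0.04, 0.03, -0.05 and -0.04 in the same order, with 6 of 13, 10 of 16, 2 of 7 and 6 of 14 above 0, and 0 genes passed.

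Of 20 genes of the cell cycle, a process that also draws on new membrane, 3 were higher after hyperoxia over both sexes, and 0 passed in males or in females alone, with 13 and 9 at an unadjusted p under 0.05. The log2 fold changes of all 20 lay above 0 over both sexes, with a median of 0.65. Aurka (0.75 ± 0.15), Rrm2 (0.83 ± 0.18) and Bub1 (0.74 ± 0.16) passed (edgeR quasi-likelihood adjusted p = 0.0315, 0.0392 and 0.0403), against 0.541% of all genes called higher. DESeq2 called 11 of the 20 higher, where it called 293 of 19948 genes higher. Without NM3, 5 of the 20 passed with a median of 0.52, where 121 of 18758 genes were called higher. The 20 cell cycle genes summed to 2930 to 3130 CPM in HM and 2760 to 3470 CPM in HF libraries, against 1150 to 2290 CPM in NM and 1730 to 2660 CPM in NF libraries. Sums of genes listed as markers of other cells are given by group, with no test of the sums. Whether other cells or the macrophages themselves carried these reads was not tested. Monocyte markers summed to 120 to 143 CPM in HM and 107 to 229 CPM in HF libraries, against 38.6 to 91.0 CPM in NM and 77.8 to 86.3 CPM in NF libraries, all 8 above 0 with a median log2 fold change of 0.73. Itgam, a chain of the integrin of myeloid cells, was the 1 monocyte marker that passed (1.59 ± 0.21, adjusted p = 0.0018). Epithelial markers summed to 450 to 472 CPM in HM and 388 to 444 CPM in HF libraries, against 190 to 334 CPM in NM and 234 to 365 CPM in NF libraries, with 7 of 10 above 0 and 0 passing. Interstitial macrophage markers summed to 40.8 to 53.7 CPM in HM and 25.2 to 105 CPM in HF libraries, against 22.5 to 42.9 CPM in NM and 22.9 to 33.3 CPM in NF libraries, with 6 of 7 measured above 0 and 0 passing. Endothelial markers summed to 52.0 to 58.2 CPM in HM and 56.2 to 87.9 CPM in HF libraries, against 62.9 to 120 CPM in NM and 67 to 98.8 CPM in NF libraries, with 7 of 7 below 0 and 0 passing. Erythroid markers summed to 52.2 to 302 CPM in HM and 121 to 251 CPM in HF libraries, against 101 to 1200 CPM in NM and 101 to 748 CPM in NF libraries. T and B cell markers summed to at most 10.5 CPM in any library. Neutrophil markers, of which 4 of 6 were measured and 1 was at 0, summed to 29.6 to 34.5 CPM in hyperoxia libraries, against 32.8 to 61.2 CPM in normoxia libraries. Mesenchymal markers summed to 17.2 to 59.6 CPM in hyperoxia libraries, against 29.3 to 77.6 CPM in normoxia libraries, and 0 genes of the last 4 lists passed. DESeq2 called 1 gene each in the interstitial macrophage (higher), neutrophil, epithelial and endothelial (lower) lists. The part of these cells in the sterol gene levels was not tested, and in bulk RNA fewer cells of a type and less RNA per cell cannot be told apart.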

How the data were processed

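Per the labels' protocols, RNA of sorted alveolar macrophages was turned into cDNA libraries by a kit for small amounts of RNA, and the leading unique molecular identifiers and adapter were trimmed. The genome build was mm39, and DESeq2 1.42, R 4.3.2, Salmon 1.10.1, STAR 2.7.9 and Trim Galore 0.6.7 are named without roles, per the submitters' processing notes. Annotation release, strand setting and any collapsing by molecular identifier are not stated there. Which libraries were size-selected again and resequenced is not stated in the labels. The deposited table holds raw counts, 1 whole number per Ensembl gene and library. Symbols were matched for 51884 of 57180 identifiers (90.7%) by identifier. No pair of replicates agreed within sampling noise (smallest chi-square per gene 20.9).

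Counts were analysed with edgeR 4.0.16 in R 4.3.3: filterByExpr with the 4 groups (count 10, total 15), TMM scaling, 1 mean per group over all 11 libraries, robust quasi-likelihood fit, 7 contrasts, and Benjamini-Hochberg adjustment over all 19948 genes at 0.05. Intervals (95%) use the test's degrees of freedom. A pooled spread serves every group, 1 of which has 2 libraries. Log2 CPM used a prior count of 2, and correlations 100000 permutations (exact for the 7 libraries). The scripts were tested on simulated data. Exon lengths come from GENCODE M21 (GRCm38), not the build of the counts. The floor of 3 counts was 0.088 to 0.160 CPM a library, below every value given, and covers counting error only. The members, lists and tests were chosen with earlier results of these data known. All 27 members are named; of the other lists, genes that passed, and otherwise the 2 with the smallest p at most (1 such gene is not reported here). Alternatives were DESeq2 1.42.0 (scaling and test), no filter, each library left out, the 4 libraries with most genes left out, and the replicate number as a block.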

Additional observations from a re-analysis of the deposited data

How the results depend on the processing

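The count of sterol genes past the test was 0 in each of the 7 contrasts under every alternative, and the lowest adjusted p of a member in a hyperoxia contrast was 0.244, for Sqle with the replicate block. With 1 library left out, the member median ran from 0.01 (without NM3) to 0.17 over both sexes, from 0.02 to 0.30 in males, from -0.03 to 0.14 in females and from -0.21 to 0.02 for the interaction. Of 1296 member fold changes under alternatives, 14 moved by more than their SE. The correlation of Hmgcs1 and Idi1 turned to 0.361 for deviations from the group means (adjusted permutation p = 0.27), and that of Hmgcs1 and Insig1 was 0.61 without NM3, an alternative added after seeing the data (adjusted permutation p = 0.078); the causes were not tested. The background of genes called over both sexes (141) was 448 with DESeq2 (293 higher and 155 lower, against 108 and 33), 302 with no filter, 23 without the 4 libraries, where HF1 alone stood for hyperoxia females and was assumed to vary like the others, and 36 (without HM3) to 195 with 1 library left out. In males and females (8 each) it was 89 and 95 with DESeq2 and 83 and 96 with no filter, 16 and 2 without the 4 libraries, and 0 to 19 and 0 to 24 with 1 library left out. Whether the replicate numbers pair the libraries could not be settled. Deviations of same-numbered libraries from their group means correlated at -0.167 to 0.574, and at over 0.1 in 7 of 15 pairs. NM3 correlated at 0.574 with NF3 and at 0.486 with HF3, and 5 of 11 libraries correlated best with their own number. The deviations of HM2 and HM3 mirror each other, because their group has 2 libraries. With the replicate block 256 genes passed over both sexes (141 without it), 21 in males and 23 in females, and still 0 members. Counting depth was lowest for Tm7sf2, with 35 counts in 1 library.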
